A study of Mus musculus with 12 samples.

Results

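Oviduct secretory products and mucins were examined in 12 mouse libraries as a set of 10 genes listed by symbol: Ovgp1, Muc1, Muc16, Muc4, Msln, Clu, Wfdc2, C3, Cd55 and Slc34a2. Of these, 9 were found among the 35509 genes of the count table, 8 of the 9 passed the filter on low counts, and Muc4 was not analysed here. The libraries came from the distal region of the Fallopian tube (oviduct) of 6 untreated mice aged 4 weeks, labelled MADM wildtype, with MADM RG;GR alleles on a mixed background. MADM, mosaic analysis with double markers, colours the offspring of a dividing cell by recombination between chromosomes, so that a clone can be recognised under the microscope. Large and small clones were sampled in every mouse, with 200 pooled and amplified cells in a library, so there were 6 libraries per clone size and 2 per mouse. All groups share the same genotype and age. The driver of recombination and the clone sizes that divide large from small were not given in the sources used here.

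The epithelium of the oviduct holds ciliated cells and secretory cells. Secretory cells release the fluid in which gametes and early embryos are kept, and their best-known product is oviductal glycoprotein, encoded by Ovgp1, whose expression responds to oestrogen. They also carry membrane-bound mucins on their surface, such as Muc1, Muc4 and Muc16, which hydrate and shield the epithelium. Several genes of the set, among them Muc16, Msln, Wfdc2 and Slc34a2, are used as markers of ovarian and tubal carcinoma in people.

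The sequences before the transcription start are shown for 4 genes that the results turn on: Ovgp1, the most abundant, Muc1 and C3, which were low in the same libraries, and Slc34a2, which was not. RefSeq promoters (GRCm38.p6) were matched by symbol for 8 of the 10 genes. Each line runs 5′ to 3′ on the strand of the gene and covers bases before the RefSeq start, ending earlier where a coding transcript of GENCODE M21 begins. Capitals mark matches to the motifs searched. Ovgp1 is at chr3:105973552-105973710 on the + strand, Muc1 at chr3:89228806-89229055 on the + strand, C3 at chr17:57228137-57228386 on the - strand and Slc34a2 at chr5:53049103-53049351 on the + strand.
Ovgp1: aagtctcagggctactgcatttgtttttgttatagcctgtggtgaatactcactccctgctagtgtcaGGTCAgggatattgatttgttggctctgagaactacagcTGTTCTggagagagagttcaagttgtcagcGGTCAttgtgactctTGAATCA
Muc1: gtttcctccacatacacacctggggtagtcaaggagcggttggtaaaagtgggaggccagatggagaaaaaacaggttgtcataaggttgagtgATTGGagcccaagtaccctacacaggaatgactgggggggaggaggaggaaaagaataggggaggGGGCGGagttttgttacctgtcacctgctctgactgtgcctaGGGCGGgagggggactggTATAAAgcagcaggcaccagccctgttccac
C3: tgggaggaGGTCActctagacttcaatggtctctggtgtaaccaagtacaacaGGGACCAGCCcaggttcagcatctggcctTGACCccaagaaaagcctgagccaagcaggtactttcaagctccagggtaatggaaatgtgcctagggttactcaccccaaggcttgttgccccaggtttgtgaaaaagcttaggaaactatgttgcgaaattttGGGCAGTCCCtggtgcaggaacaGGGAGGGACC
Slc34a2: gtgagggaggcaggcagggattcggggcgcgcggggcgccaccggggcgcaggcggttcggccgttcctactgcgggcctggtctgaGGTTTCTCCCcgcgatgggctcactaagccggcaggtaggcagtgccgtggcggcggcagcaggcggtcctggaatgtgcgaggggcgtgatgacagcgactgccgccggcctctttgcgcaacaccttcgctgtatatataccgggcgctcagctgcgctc

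Motifs were searched on both strands of the 250 bases before each start and compared with 32536 distinct promoter windows of the same length. The full oestrogen response element GGTCANNNTGACC was in none of the windows of the 8 genes and in 0.0645% of all windows. Its half-site GGTCA, which is part of that element, was found in 35.3% of all windows. It occurred at 182 to 178 and at 113 to 109 bases before the start of Ovgp1, and at 2 places before C3. Wfdc2, which has more than 1 start, had it at 5 to 1 bases before 1 of them. The Ovgp1 window also held TGAATCA, a match to a loose AP-1 motif with any base in the middle (TGANTCA, in 6.73% of windows). A match to the steroid receptor half-site AGAACA (16.03% of windows) was there too. Muc1 had a TATA box (TATAAA, 12.3% of windows), 2 GC boxes (GGGCGG, 32.97%) and a CCAAT box (33.8%). C3 had 3 matches to the NF-kB motif GGGANNNNCC (17.7% of windows), and Slc34a2 had 1. Slc34a2 had the highest GC content among the windows of the 8 genes, 69.6% with 28 CpG. Ovgp1 had 46.4% and 3 CpG, and the median over all windows was 52.4% and 6 CpG. These are matches of letters and no measure of binding.

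The 12 libraries did not form a single group. Their total counts ran from 3057834 to 4227005. In 5 of them, namely both from mouse 6, the large clones from mice 1 and 2 and the small ones from mouse 3, the chemoreceptor genes, which encode olfactory, vomeronasal and taste receptors, made up 7.86% to 11.02% of all counts, while in the 7 others they made up 0.841% to 4.17%. They are called higher-share and lower-share libraries below. Ribosomal protein genes held 1.87% to 8.68% of counts in the higher-share libraries and 14.3% to 19.3% in the others. The summed level of 17 ciliated-cell markers was 217 to 987 CPM against 1902 to 6569 CPM, and the epithelial keratins Krt8 and Krt18 together held 0.0271% to 0.136% of counts against 0.250% to 0.647%. CPM are counts scaled to a common library size, and 3 counts, the limit that a count of 0 allows, came to 0.585 to 1.33 CPM. Both clone sizes occur in both sets, so fits within each set are given for several of the genes.

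Per length of exon, the secreted products stood above the membrane proteins. The median over 12 libraries was 364 CPM per kb for Ovgp1, 329 for Wfdc2, 249 for Clu and 188 for C3. Muc1 followed at 58.0, Msln at 4.62, Slc34a2 at 4.01 and Cd55 at 1.73 CPM per kb. Neighbours in this order overlapped across libraries: Ovgp1 ran from 98.4 to 2198, Wfdc2 from 85.3 to 1007, Clu from 8.68 to 593 and C3 from 15.2 to 589 CPM per kb. Ovgp1 was the highest of the set per length in 6 libraries, Wfdc2 in 5 and C3 in 1. The set as a whole held 0.0891% to 0.162% of counts in the higher-share libraries and 0.369% to 1.03% in the lower-share ones. Ovgp1 supplied 33.4% to 54.8% of these counts in the higher-share libraries and 10.6% to 65.3% in the others.

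In the coordinates of the table, whose build is not named and is not that of the promoters, Ovgp1 (ENSMUSG00000074340) lies on chromosome 3 from 105881027 to 105894739. Muc1 (ENSMUSG00000042784) lies on chromosome 3 from 89136364 to 89140688, and Wfdc2 (ENSMUSG00000017723) on chromosome 2 from 164404333 to 164410430. Clu (ENSMUSG00000022037) lies on chromosome 14 from 66205932 to 66218996 and C3 (ENSMUSG00000024164) on chromosome 17 from 57510970 to 57535136. Msln (ENSMUSG00000063011) lies on chromosome 17 from 25967587 to 25973352 and Muc16 (ENSMUSG00000109564) on chromosome 9 from 18406751 to 18585826. Cd55 (ENSMUSG00000026399) lies on chromosome 1 from 130366764 to 130390481 and Slc34a2 (ENSMUSG00000029188) on chromosome 5 from 53195423 to 53229006. Levels are sums over all exons of a gene.

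**Figure D1:**
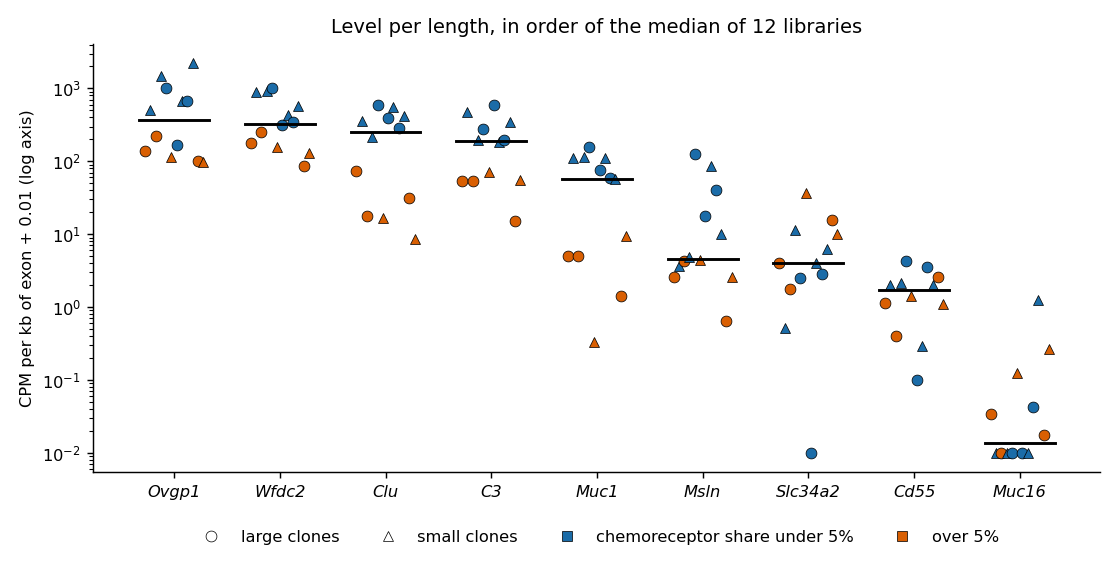
Level of 9 genes in CPM per kb of exon (log axis, 0.01 added) in each of 12 libraries. Circles are large clones and triangles small clones, colour gives the chemoreceptor share, and bars are medians of 12 libraries, from 364 for Ovgp1 down to 1.73 for Cd55, with Muc16 lowest.

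No gene of the set differed between large and small clones beyond the spread between libraries. Of the 8 tested, 0 had an adjusted p under 0.05 in the quasi-likelihood test of edgeR, as did 0 of 10848 genes (0%), and each of the 8 had 0.9998. An unadjusted p under 0.05 was likewise found for 0 of the 8, against 275 of all tested genes (2.54%). DESeq2 called 5 genes, or 43 with mouse as a block, and 0 of the 8 were among them. Levels were lower in large clones in at least 4 of 6 mice for 7 of the 8 genes, a pattern that 36.8% of all tested genes had. The median log2 fold change of the 8 was -0.29, beside 0.06 for all tested genes. Because libraries hold pooled cells, fewer secretory cells and less RNA per cell cannot be told apart.

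**Figure D2:**
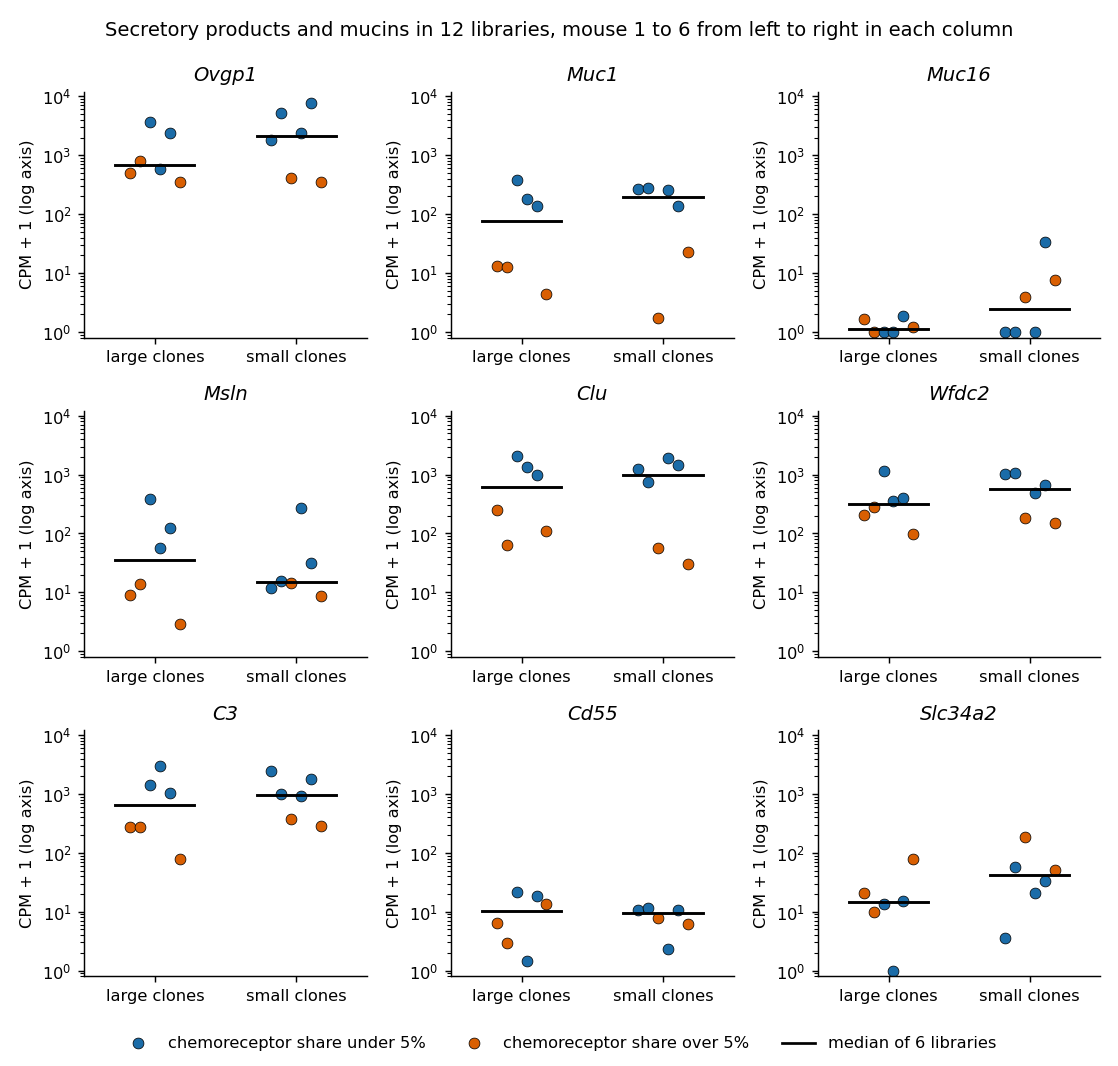
CPM + 1 (log axis) of 9 genes in the 6 large-clone and 6 small-clone libraries, with mice 1 to 6 from left to right and bars at the medians. Colour gives the chemoreceptor share, and for Muc1, Clu, Wfdc2 and C3 every library with a share over 5% lies under every other library.

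Among the secreted products, Ovgp1 had the largest shift in median. It ran from 354 to 3629 CPM in large clones, with a median of 692, and from 350.3 to 7829 CPM in small clones, with a median of 2102. The 3 highest libraries were the small clones of mouse 5 (7829 CPM) and mouse 2 (5202 CPM) and the large clones of mouse 3 (3629 CPM), so 2 small-clone libraries lay above every large-clone library and the other 4 overlapped with them or lay just below. The log2 fold change, large over small, was -1.12 (SE 0.83). Within the 7 lower-share libraries it was -1.03 (SE 0.64) and within the 5 higher-share libraries 0.45 (SE 0.42), with adjusted p of 0.9976 and 0.971 in edgeR. The mean was 1378 ± 1337 CPM (SD, n = 6) in large and 2999 ± 2956 CPM (SD, n = 6) in small clones, so the SD was about as large as the mean. Ovgp1 counts were not whole in 11 of 12 libraries, so some of its reads were shared with other transcripts by the authors' counting.

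Wfdc2 (also called HE4) encodes a small secreted protein with antiprotease-type domains. It ran from 97.3 to 1149 CPM in large clones (median 321) and from 150 to 1059 CPM in small clones (median 576). It was lower in large clones in 5 of 6 mice, and mouse 3, where large clones had 1149 CPM and small ones 181 CPM, was the exception. Its log2 fold change was -0.52 (SE 0.66), and without mouse 3 it was -1.35 (SE 0.62, adjusted p of 0.848 in edgeR). Of the 8 genes it varied least between libraries, with a biological coefficient of variation of 81.6%, which only 16.4% of tested genes matched or undercut.

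C3, the central component of complement, ran from 78.2 to 3028 CPM in large clones (median 647) and from 281 to 2470 CPM in small clones (median 969). Clu encodes clusterin, a secreted chaperone that also restrains complement. It ran from 61.5 to 2037 CPM in large clones (median 613) and from 29.8 to 1891 CPM in small clones (median 981). For C3, the large clones of mice 1, 2 and 6 lay below every small-clone library and those of mouse 4 above, while for Clu the lowest library was a small-clone and the highest a large-clone one. The log2 fold changes were -0.17 (SE 0.80) for C3 and -0.18 (SE 0.98) for Clu, and with mouse as a block that of C3 was -0.76 (SE 0.82). Both directions turned in the 7 lower-share libraries, at 0.13 (SE 0.51) for C3 and 0.07 (SE 0.40) for Clu.

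The highest C3 level of all, 3028 CPM, was in the large clones of mouse 4, where Ovgp1 stood at 589 CPM, the lowest of the lower-share libraries. That library also held fat-cell transcripts. Of 10 adipocyte markers, a list chosen after this was seen, 9 were highest there, and their summed level was 31446 CPM, against 71.0 to 1543 CPM in the other 11 libraries. Cfd, which encodes adipsin, had 23318 CPM there and at most 966 elsewhere. Retn, which encodes resistin, had 4423 CPM against at most 257, and Adipoq, which encodes adiponectin, had 696 against at most 30.4, while Pparg had 0. Their part in the C3 level was not tested. Without mouse 4 the log2 fold change of C3 was -0.98 (SE 0.84, adjusted p of 0.9998 in edgeR).

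Muc1, the most abundant membrane mucin, had a biological coefficient of variation of 127% between libraries, beside 131% for Msln. Of tested genes, 69.9% matched or undercut the value of Muc1 and 73.0% that of Msln. Muc1 ran from 3.31 to 374 CPM in large clones (median 74.8) and from 0.744 to 273 CPM in small clones (median 196). Within the large clones, mice 3, 4 and 5 had 137.6 to 374 CPM and mice 1, 2 and 6 had 3.31 to 11.9 CPM, with nothing between. The small clones split likewise, with mice 3 and 6 at 0.744 and 22.1 CPM and the others at 134 CPM or more. The log2 fold change between clone sizes was -0.40 (SE 1.14). It was -1.61 (SE 1.57) with mouse as a block, and within the lower-share libraries, where Muc1 varied from 134 to 374 CPM only, it was -0.11 (SE 0.54).

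Muc16, the mucin that carries the CA125 antigen, was near the limit of detection. It had 7 counts over the 6 large-clone libraries and 157 over the 6 small-clone libraries, with 3 libraries of each size at 0. Of the small-clone counts, 113 were in mouse 5 (32.7 CPM), 32 in mouse 6 (6.73 CPM) and 12 in mouse 3 (2.98 CPM), and no large-clone library exceeded 3 counts. It did not pass the filter on low counts. In a fit with no such filter its adjusted p was 0.419 in edgeR. It passed the filter in the 5 higher-share libraries alone, and only through the small clones of mice 3 and 6. Selection by that filter fixed the direction there, so no fold change is given.

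Msln encodes mesothelin, a surface protein that binds Muc16. It ran from 1.95 to 382 CPM in large clones (median 34.0) and from 7.78 to 267 CPM in small clones (median 14.2). High values were in 3 libraries, the large clones of mice 3 and 5 (382 and 125 CPM) and the small clones of mouse 4 (267 CPM), and the highest Muc16 library was none of these. Msln and Cd55 were the genes of the set with a positive log2 fold change. That of Msln, 0.76 (SE 1.18), was -0.71 (SE 1.21) without mouse 3 and 2.71 (SE 1.19) without mouse 4, with adjusted p of 0.877 and 0.9998 in edgeR. With mouse as a block it was 0.06 (SE 1.12). Msln and Muc16 are also products of the mesothelium that covers the tube. Of 9 mesothelial markers, Upk1b and Gpm6a had 0 counts in every library, and Lrrn4 and Bnc1 stayed at or under 0.633 CPM. Upk3b reached 12.2 CPM in the small clones of mouse 5, the library with the most Muc16, and at most 1.40 CPM in the other 11. Calb2 had 9.87 CPM in the small clones of mouse 4 and 6.18 and 5.33 CPM in the large clones of mice 5 and 4, which are 3 of the 4 libraries with the most Msln, and at most 0.868 CPM elsewhere. The 9 summed to 153 to 392 CPM for large clones and 156 to 567 CPM for small ones, mostly Wt1 and Krt19, which the tubal epithelium can express too. Their part in the Msln and Muc16 levels was not tested.

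Cd55, which protects cell surfaces from complement, was low throughout, from 0.444 to 21.0 CPM in large clones (median 9.09) and from 1.36 to 10.5 CPM in small clones (median 8.37). Its log2 fold change was 0.43 (SE 0.85), and -0.08 (SE 0.83) with mouse as a block. Slc34a2, a sodium-phosphate cotransporter of the apical membrane, ran from 0 to 77.4 CPM in large clones (median 13.3) and from 2.53 to 184 CPM in small clones (median 41.2). Its log2 fold change, -1.37 (SE 1.09), was the most negative of the set over all 12 libraries, but without mouse 3 it was -0.42 (SE 1.17) and that of Ovgp1 was -1.93 (SE 0.84). It was -1.67 (SE 1.48) and -1.81 (SE 1.10) within the lower-share and higher-share libraries. It was lower in large clones in mice 2, 3, 4 and 5 and higher in mice 1 and 6. The library at 0 was the large clones of mouse 4, the one with the fat-cell transcripts.

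**Figure D3:**
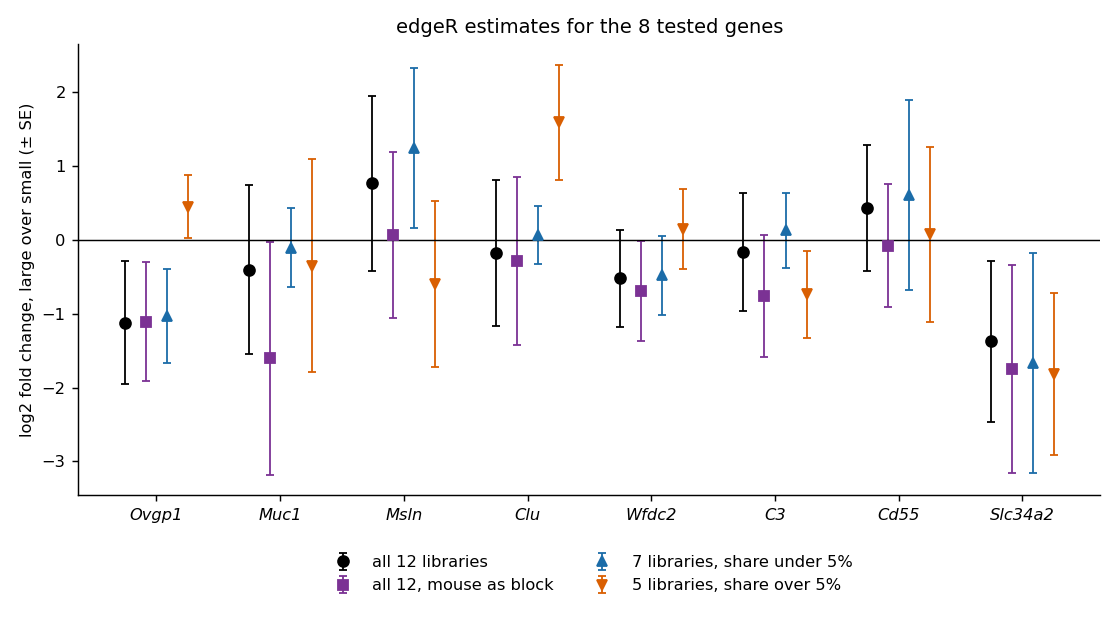
Log2 fold change, large over small clones, with SE for the 8 tested genes, from edgeR fits of all 12 libraries, of all 12 with mouse as a block, and of the 7 lower-share and 5 higher-share libraries. Slc34a2 is negative in all 4 fits, from -1.37 to -1.81, and Muc1 is negative in all 4 as well, while each of the other 6 genes changes sign in at least 1 of them.

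Far larger differences ran between the 2 sets of libraries than between clone sizes. For Muc1, Clu, Wfdc2 and C3, 4 of the 8 tested genes, all 7 lower-share libraries lay above all 5 higher-share ones, which was so for 9.98% of tested genes. For Wfdc2 this depended on the scaling. In CPM from total counts, the large clones of mouse 4, a lower-share library, had 238 CPM. Those of mice 1 and 2, both higher-share, had 254 and 319 CPM. Muc1 had a median of 258 CPM in the lower-share and 11.8 CPM in the higher-share libraries, a ratio of 21.9. Clu had 1337 against 61.5 CPM, a ratio of 21.8. The ratio was 5.28 for C3 (1441 against 273 CPM) and 3.67 for Wfdc2 (664 against 181 CPM). Ovgp1 (2413 against 407 CPM) and Msln (55.1 against 7.85 CPM) had 6 of the 7 lower-share libraries above all others, with ratios of 5.92 and 7.02. In all, 5 of the 8 genes had a ratio of at least 4, beside 27.2% of tested genes. CPM from total counts gave C3 medians of 1066 and 322 CPM and Msln medians of 36.7 and 9.87 CPM. Both pairs lie less than 4-fold apart. The sets were defined by a measured share, so no test is given between them.

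Cd55 and Slc34a2 did not follow. Cd55 had medians of 9.84 and 5.52 CPM with overlapping ranges. Slc34a2 was higher in the higher-share libraries, with a median of 50.6 CPM against 14.3, a ratio of 3.54, and 2 of these libraries, the small clones of mouse 3 (184 CPM) and the large clones of mouse 6 (77.4 CPM), exceeded all others. Its ranges overlapped, whereas 8.62% of tested genes had all 5 higher-share libraries above the other 7. Muc16 had 0 to 6.73 CPM in the higher-share and 0 to 32.7 CPM in the lower-share libraries.

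Relative to epithelial keratin, the order of the sets was not the same for each gene. The ratio of Ovgp1 counts to the summed counts of Krt8 and Krt18, a measure chosen after the values were seen, was 0.330 to 1.59 in the higher-share libraries and 0.157 to 1.45 in the lower-share ones, which overlap. For Wfdc2 it was 0.146 to 0.435 against 0.0654 to 0.257, with medians of 0.234 and 0.123, so on this scale Wfdc2 was not the lower in higher-share libraries. C3 had 0.224 to 0.403 against 0.125 to 0.808, with the higher median, 0.344 against 0.244, in the higher-share libraries. Clu had medians of 0.0505 and 0.253, but no lower-share library exceeded the higher-share maximum of 0.486. Muc1 had 0.000602 to 0.0317 against 0.0248 to 0.0662 and 6 of 7 lower-share libraries above all the others. Slc34a2 had medians of 0.0727 and 0.00269.

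The number of genes lower in large clones differed from mouse to mouse. In mice 1 and 2, whose large clones were the higher-share library, 7 and 8 of the 9 genes were lower in large clones. In mouse 3, whose small clones were the higher-share library, 7 of the 9 were higher in large clones. In mice 4, 5 and 6, whose libraries were both of the same set, 7, 6 and 5 of the 9 were lower in large clones, so mouse 4 had as many as mouse 1. The difference in log2(CPM + 1) of Muc1 was -4.35 and -4.42 in mice 1 and 2 and 7.75 in mouse 3, and that of Clu was -2.28, -3.56 and 5.15. In mice 4, 5 and 6 Clu differed by -0.50, -0.58 and 1.83 and Wfdc2 by -0.45, -0.76 and -0.62. Ovgp1 differed by -2.03 and -1.70 in mice 4 and 5 and by 0.02 in mouse 6. Between 47.4% and 55.0% of all tested genes were lower in large clones in any of the 6 mice.

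**Figure D4:**
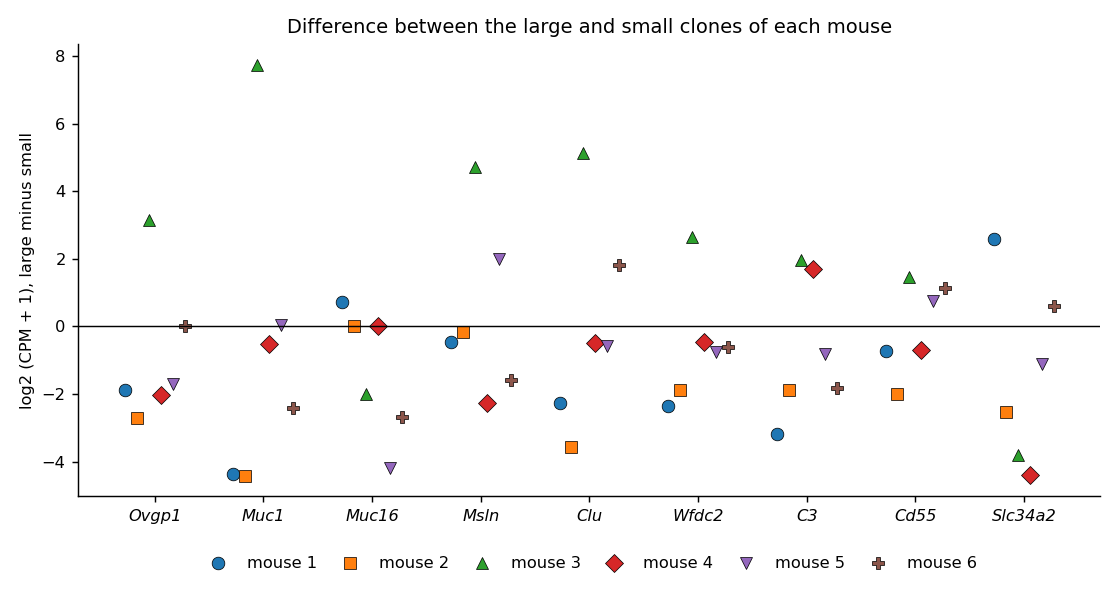
Difference in log2(CPM + 1), large minus small clones, for 9 genes in each of 6 mice. Mouse 3 is the highest for Ovgp1, Muc1, Msln, Clu, Wfdc2, C3 and Cd55, up to 7.75 for Muc1, while mice 1 and 2 are below 0 for each of these 7 genes.

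Within the lower-share libraries the secretory genes did not all rise and fall together. Over the 10 pairs of Ovgp1, Muc1, Clu, Wfdc2 and C3, the Spearman correlation of log2(CPM + 1) was -0.39 to 0.75 over these 7 libraries, which share mice and differ in clone size. The genes most like Ovgp1 over all 12 libraries, by the same measure, were Mphosph8 (0.986), Itm2b (0.979), Rpn2 (0.972), Gm7536 (0.972) and Erp29 (0.972). Itm2b encodes a membrane protein, and Rpn2 and Erp29 encode proteins of the endoplasmic reticulum. All 5 had lower medians in the higher-share libraries, as with Rpn2 at a median of 113 against 415 CPM. They were chosen for likeness to Ovgp1 over these same libraries, and Ovgp1 was itself lower there, so this is no separate result. Of the set, Wfdc2 came closest to Ovgp1 over all 12 libraries at 0.895, rank 114 of the tested genes, and Slc34a2 was at -0.25. Within the 7 lower-share libraries the order differed. Slc34a2 (0.82) and Cd55 (0.64) came before Wfdc2 (0.54) and Muc16 (0.53), with Muc1 at -0.04, Msln and Clu at 0 and C3 at -0.39.

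Related genes gave no further call. Over 8 lists of relatives and partners, 52 genes were tested and 0 passed the adjusted threshold in edgeR, with 1 at an unadjusted p under 0.05, Cfd. Cfd had a log2 fold change of 5.18 (SE 2.30), which was 0.79 (SE 1.75) without mouse 4, whose large clones held the fat-cell transcripts, and 0.41 (SE 1.85) with mouse as a block. Among 15 tested complement genes, 7 were lower and 8 higher in large clones, with a median log2 fold change of 0.04. Of 10 tested products of oviduct and related epithelia, 7 were lower in large clones (median -0.30, beside 0.06 for all tested genes). Ltf, which encodes lactoferrin, spanned 13.3 to 2245 CPM where clones were large and 53.4 to 1625 CPM where they were small. It had at most 245 CPM in the higher-share libraries and at least 301 CPM in the lower-share ones. Gpx3, a secreted glutathione peroxidase, had medians of 219 and 285 CPM in large and small clones, though its log2 fold change was 0.37 (SE 0.72). Pigr, the receptor that carries IgA across epithelia, had 164 CPM in both.

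Only 3 of 15 mucin-type genes in the table passed the filter, Muc1 and the endothelial or podocyte sialomucins Emcn and Podxl, whose log2 fold changes were 0.68 (SE 1.12) and 2.16 (SE 1.56). The medians of Podxl were 7.84 and 1.86 CPM, and large clones had the higher level in 4 mice. Of 11 tested enzymes that build mucin O-glycans, 9 were lower in large clones, with a median log2 fold change of -0.53, beside 0.06 for all tested genes. An unadjusted p under 0.05 in edgeR was found for 0 of the 11. Those with the highest levels were St6galnac2, with medians of 55.6 and 72.9 CPM in large and small clones, Galnt10 (26.97 and 35.2 CPM) and Gcnt3 (27.9 and 45.2 CPM). Their unadjusted p lay between 0.391 and 0.587 in edgeR.

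Among 3 tested genes of the Wfdc group, Wfdc18 had a median of 35.5 CPM in large clones and of 145 CPM in small ones, and Wfdc15b 23.5 and 25.5 CPM. All 3 had a negative log2 fold change, with a median of -0.52, beside 0.06 for all tested genes. The family of Ovgp1, glycoside hydrolase 18, had 4 tested genes with a median of 0.09. Chid1, with medians of 212 and 257 CPM, and Chil6, with 19.4 and 14.7 CPM, stood far below Ovgp1 in counts. For phosphate transport, 4 genes had a median of -0.66, and the exporter Xpr1 had 126 and 146 CPM while Slc20a1 had 73.4 and 28.1 CPM. In the mesothelin family Otoa was tested beside Msln, with 9.92 and 10.04 CPM.

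Markers of other cells were present beside the epithelium. The summed level of 9 markers listed for secretory cells spanned 742 to 11931 CPM for large and 1215 to 13686 CPM for small clones. They include Ovgp1, a gene of the set, and the epithelial keratins Krt8 and Krt18, so the sum is not specific to secretory cells. Fibroblast markers summed to 28.3 to 521 CPM and 38.4 to 170 CPM, smooth muscle markers to 4.09 to 73.3 and 1.68 to 215 CPM, immune markers to 12.4 to 253 and 6.80 to 105 CPM, and endothelial markers to 137 to 466 and 80.3 to 273 CPM. Red-cell markers summed to 200.4 to 5928 CPM and 32.99 to 2137 CPM. Large clones had the lower secretory, ciliated and mesothelial sums in 5 of 6 mice each, the lower fibroblast, smooth muscle and red-cell sums in 3, and the lower endothelial and immune sums in 1. The secretory sum was mostly Ovgp1 and Krt18, and the mesothelial one mostly Wt1 and Krt19. Of the other markers in the secretory list, Krt8 was lower in large clones in every mouse but mouse 3. Krt7 was lower there in mice 1, 2, 5 and 6, Epcam in mice 1, 2, 4 and 5, and Cdh1 in mice 1, 3, 4 and 5. Sox17, with at most 4.63 CPM, was lower in mice 1, 4, 5 and 6. Pax8 was lower in large clones in mice 2, 4 and 6 only, and Wt1 in mice 3 and 5 only. The part of these cell types in the values above was not tested.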

How the data were processed

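Per the labels' protocols, cells were taken by laser microdissection, lysed with proteinase K and their poly(A) RNA amplified, and Nextera XT served for library preparation. The authors deposited expected counts per gene, and RSEM and Bowtie2 with the build GRCm38 are named in the submitters' processing notes. Versions, filters and the annotation release are not given in the sources used here. Of all entries 22.7% were not whole. RSEM divides reads that map to several transcripts, so genes with close relatives are uncertain. Of the genes also in GENCODE M21 (GRCm38), 2.96% had the table's chromosome and start, so gene positions are the table's own, in a build it does not name, and GENCODE served for exon lengths by gene identifier. Nextera XT does not mark strand, but no gene of the set overlapped another in the table.

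Expected counts were rounded and tested with edgeR 4.0.16 in R 4.3.3 (quasi-likelihood, TMM, filterByExpr, Benjamini-Hochberg over 10848 genes at 0.05), without mouse in the model. Per the labels, equal numbers mark the same animal, and a paired fit took mouse as a block. The 2 libraries' deviations from their group means correlated at -0.02, -0.007, -0.38, 0.28, 0.52 and 0.64 in mice 1 to 6. P-values of the main fit measure the spread between libraries, with the 2 of a mouse taken as independent. Those of the paired fit measure the spread of the differences within mice. Spread between mice and technical spread cannot be told apart. DESeq2 1.42.0 was another alternative. CPM used TMM-scaled library sizes, differences log2(CPM + 1), and intervals of 3 counts cover counting error only. Totals of 3057834 to 4227005 counts limit genes under about 1 CPM. One row without a symbol held 0.133% of counts and was kept.

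Named genes were the set, the 5 genes most like Ovgp1 by Spearman correlation, and the 3 most abundant tested genes of each of 8 lists. The set, lists, rules and alternatives were chosen with earlier results of these data known. On data simulated for 10848 genes, 0 of 150 genes with a true 4-fold change were called, as were 3 of 150 with an 8-fold and 10 of 150 with a 16-fold change, and 0 unchanged genes. Figures used matplotlib 3.10.9.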

Additional observations from a re-analysis of the deposited data

Results flagged for a closer look

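In the small clones, Msln had 267 CPM in mouse 4 and 30.4 CPM or less in the other 5 mice. The distance from it to the next library took up 0.627 of the whole range of log2(CPM + 1), just above the limit of the Dixon criterion for 6 values. It was the only such case among 18 groups searched, the 9 genes in each clone size, where chance gives about 1 in 20. In that library the mesothelial markers Upk3b, Calb2 and Aldh1a2 had 0.340, 9.87 and 0 CPM, and their part in this value was not tested.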

How the results depend on the processing

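No gene of the set passed the adjusted threshold in any of the 18 alternatives, of which 5 were added after seeing the data. The count of all genes past the threshold was 0 in edgeR throughout, and 5 in the DESeq2 test or 43 in the DESeq2 test with the replicate block. The list genes gave 0 calls in each. Pairing by the replicate block in edgeR left 0 calls, changing none, and turned Cd55 to -0.080, as DESeq2 with the block did to -0.067. It also moved Muc1 from -0.40 to -1.61, C3 from -0.17 to -0.76 and Msln from 0.76 to 0.06, by more than 1.5 times each. Slc34a2 kept a negative log2 fold change in all 17 alternatives that tested it, from -2.43 to -0.42. Adding the chemoreceptor share to the model turned Clu to 0.71, and with the block added Clu was 1.00, Muc1 1.08 and Wfdc2 0.020. In the 7 lower-share libraries Clu was 0.066 and C3 0.13. In the 5 higher-share libraries Ovgp1 was 0.45, Msln -0.60, Clu 1.59 and Wfdc2 0.15. Without 1 mouse each, the log2 fold change ran from -0.71 to 2.71 for Msln, -0.97 to 0.040 for Clu and -0.98 to 0.32 for C3, and kept its sign for Ovgp1 (-1.93 to -0.81), Muc1 (-1.47 to -0.02), Wfdc2 (-1.35 to -0.21) and Cd55 (0.05 to 0.69). The causes were not tested. CPM from total counts moved each clone size's mean by less than 1 SD, but made the 2 sets of libraries overlap for Wfdc2. With at least 10 counts in every library, Muc1, Cd55 and Slc34a2 were not tested. At the spread between libraries and the depth of these data, 6.67% of genes simulated with a 16-fold change were called, so large differences can go uncalled. The simulation varied neither spread nor depth.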
